A study of Mus musculus with 18 samples.

Results

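Polyamine synthesis and its antizyme control were followed in 8 mouse genes chosen by name: Odc1, Oaz1, Oaz2, Azin1, Amd1, Srm, Sms and Sat1. The count files list 24035 genes, all 8 of them included, and 6 of the 8 had reads. Ribosome-protected fragments (RPF, the pieces of mRNA left after nuclease because a ribosome covers them) and heat-fragmented mRNA were sequenced from the NIH3T3 fibroblast line in 3 groups. One group was WT cells treated for 3 h with 200 nM Torin1, which blocks the ATP site of mTOR. Another was cells edited with CRISPR at Mtor to encode C1483Y and given vehicle, and the third was WT cells given vehicle. Each group had 3 RPF and 3 mRNA libraries, and Torin1 and C1483Y cells were both set against the same WT libraries. The labels tell neither whether replicates were separate cultures nor how many edited clones were used, so the p-values reflect only differences among these libraries, possibly technical ones.

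Polyamines (putrescine, spermidine and spermine) are small cations that bind RNA and are needed for growth. Ornithine decarboxylase makes putrescine, and spermidine and spermine synthases extend it with aminopropyl groups that S-adenosylmethionine decarboxylase provides. Antizymes, made by a ribosomal frameshift that polyamines promote, bind ornithine decarboxylase and send it to the proteasome, and antizyme inhibitor binds antizyme in its place. Several of these mRNAs are thus controlled while they are translated, and growth signals through mTOR and Myc are known to raise polyamine synthesis.

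The sequences below show 1 such element and the promoter motifs of a pair of members, read from RefSeq (GRCm38.p6). The mouse Amd1 leader holds an upstream open reading frame for a short peptide, at which ribosomes are known to stall when polyamines are plentiful. Its ATG begins at base 14 from the RefSeq start, and the frame, in capitals, has 6 codons before the stop and 21 bases with it. The Odc1 stretch spans the start site from which its RefSeq promoter window is counted, a site inside the span given for the gene below, and the capitals mark a GC box on the other strand, the motif of Sp-family factors. The capitals of the Sms stretch mark an E-box, the motif Myc and Max bind.
Amd1 leader, chr10:40302155-40302179, minus strand: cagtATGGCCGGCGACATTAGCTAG
Odc1 promoter, chr12:17544836-17544885, plus strand: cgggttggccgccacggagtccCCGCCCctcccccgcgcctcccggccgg
Sms promoter, chrX:157492456-157492505, minus strand: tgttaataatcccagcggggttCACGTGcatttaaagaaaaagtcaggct
Promoter windows of 300 bases were matched for 6 members, 2 of them for Sms. The GC box (GGGCGG, either strand, overlaps with other motifs allowed) occurred 4 times in the windows of Odc1 and of Oaz2, 4 times in the other Sms window, 2 times in that of Sat1 and 1 time in that of Amd1, and 35.7% of all 32851 windows held it. The E-box CACGTG occurred in 1 of the Sms windows and in 7.15% of all windows. A match describes the letters of a window and is not a binding site.

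Gene counts per library were 4.681 to 42.82 M reads in RPF and 4.418 to 94.3 M in mRNA. Values are in CPM, the counts per 1 M reads in tested genes, after scaling between the libraries of an assay. They are relative to the other genes, so a change in RPF or mRNA shared by all genes would not show. Higher and lower below are meant in that sense. The mRNA libraries varied far more among replicates than the RPF libraries, with a median biological coefficient of variation of 2.19 in mRNA and 0.902 in RPF. Replicate 2 of C1483Y mRNA and replicate 3 of Torin1 mRNA, which carry different labels, were nearly identical (r = 0.999 over genes, against at most 0.483 for other mRNA pairs). The log2 changes of members in mRNA are therefore given with and without them. Of 12 fibroblast markers, all were detected in every Torin1 and WT RPF library and at most 1 was at 0 in a C1483Y one, but their summed level was 2070 to 3520 CPM in C1483Y libraries, against 22200 to 32800 CPM in WT libraries. In mRNA the sum was 1290, 15600 and 1750 CPM in C1483Y, against 10400 to 19800 CPM in WT. Replicate 2 is the library of the nearly identical pair. Of 5 markers of neurons and glia, 2 or 3 were at 0 in each C1483Y RPF library, and the sum was 1300 to 1700 CPM, against 15.7 to 22.8 CPM in WT. One of them, Uchl1, had 342, 381 and 525 CPM in C1483Y, against at most 0.0745 CPM in WT. Of 4 muscle markers, 2 were at 0 in each C1483Y RPF library, and the sum was 938 to 1510 CPM, against 6.48 to 43 CPM in WT. In C1483Y mRNA replicates 1, 2 and 3 the sums were 1930, 0.106 and 337 CPM for neurons and glia and 3720, 0.128 and 2440 CPM for muscle, against at most 0.222 CPM in WT for either. Cdkn2a, which NIH3T3 cells are known to have lost and which was looked up after results were seen, had RPF of 331, 90.9 and 179 CPM in C1483Y, 0 in each Torin1 library and at most 0.298 CPM in WT, and 0 mRNA reads in all libraries. The C1483Y libraries thus go against their label as NIH3T3 fibroblasts in part, every C1483Y result below is between libraries labelled C1483Y and WT, and the part of this difference in those results was not tested. Fewer cells of a type and less RNA per cell cannot be told apart in such bulk samples.

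Oaz1 (chr10:80826656-80829290), the main antizyme gene, and Amd1 (chr10:40287458-40302188), which encodes S-adenosylmethionine decarboxylase, were listed at 0 reads in all 18 libraries. So were 8679 of the 24035 genes (36.1%), among them Oaz1-ps (chr17:17345242-17346204) and Amd2 (chr10:35708691-35711891), which share most of their names with these genes. A count of 0 allows up to 0.0701 to 0.641 ppm of gene counts in an RPF library and 0.0318 to 0.679 ppm in an mRNA library, for counted reads alone. Reads placed at more than 1 site stayed out of gene counts, and their share of the counting totals was 22.18% to 47.51% in RPF and 49.33% to 95.88% in mRNA. Whether reads of Oaz1 and Amd1 were among them was not tested, and the zeros are not read as absence of the transcripts. Neither gene could therefore be followed in these counts. As reads were counted per gene, upstream frames and frameshifts could not be followed for any member, Azin1 and Oaz2 included.

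Torin1 was compared with WT first, for the RPF of these mRNAs relative to other genes after 3 h of Torin1. Of the 6 measured genes, 3 had Torin1 and WT libraries that did not overlap in RPF: Srm and Odc1 were lower and Azin1 was higher. None of the 6 passed an adjusted p of 0.05 in edgeR's quasi-likelihood test, where 0.749% of the 11085 genes tested passed (0.74% lower). At an unadjusted p under 0.05, 1 of the 6 passed (Srm), against 4.15% of all genes. DESeq2 called none of the 3 members to which it gave an adjusted p (Oaz2, Azin1 and Srm), and gave none for Odc1, Sms and Sat1. Non-overlap was 1 of 6 higher and 2 of 6 lower, against 8.48% higher and 10.7% lower among all genes (19.2% either way). The median log2 change of the 6 was -0.28, against 0.03 over all genes tested.

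Ornithine decarboxylase, the first enzyme of the pathway and one of the proteins with the shortest known half-lives in mammals, is encoded by Odc1 (chr12:17544808-17551502). Odc1 RPF were 34, 55.2 and 42 CPM in Torin1 replicates 1, 2 and 3, 37.2, 17.5 and 52.1 CPM in C1483Y, and 90.6, 66.8 and 113 CPM in WT. Every Torin1 library and every C1483Y library lay below every WT library, while Torin1 and C1483Y overlapped. The mean was 43.8 ± 10.7 CPM in Torin1 and 90.2 ± 23.2 CPM in WT (SD, n = 3 each). The log2 change in Torin1 was -1.04 ± 0.53 (SE; edgeR adjusted p = 1, unadjusted 0.0745), and 7.8% of genes with a mean of at least 10 CPM had a lower one.

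Azin1 (chr15:38487430-38519294) encodes antizyme inhibitor, a relative of ornithine decarboxylase without its activity, whose own mRNA is known to carry an upstream frame that responds to polyamines. Azin1 RPF were 138, 216 and 181 CPM in Torin1, 226, 104 and 279 CPM in C1483Y, and 106, 127 and 81.2 CPM in WT. The Torin1 libraries all lay above the WT libraries, and C1483Y replicate 2 lay among the WT values with its other replicates above them. The Torin1 mean was 178 ± 38.8 CPM and the WT mean 105 ± 22.7 CPM (SD, n = 3 each). The log2 change in Torin1 was 0.77 ± 0.40 (SE; edgeR adjusted p = 1, unadjusted 0.0805), and 86.3% of genes with a mean of at least 10 CPM had a lower one.

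Within a library, the ratio of RPF reads of Azin1 to those of Odc1 does not depend on scaling between libraries. This ratio was 4.06, 3.9 and 4.32 in Torin1, 6.07, 5.94 and 5.36 in C1483Y, and 1.17, 1.89 and 0.717 in WT. The groups did not overlap, and the C1483Y values lay above the Torin1 values. This pair was picked after its values were seen, so the ratio is a description with no test.

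**Figure D1:**
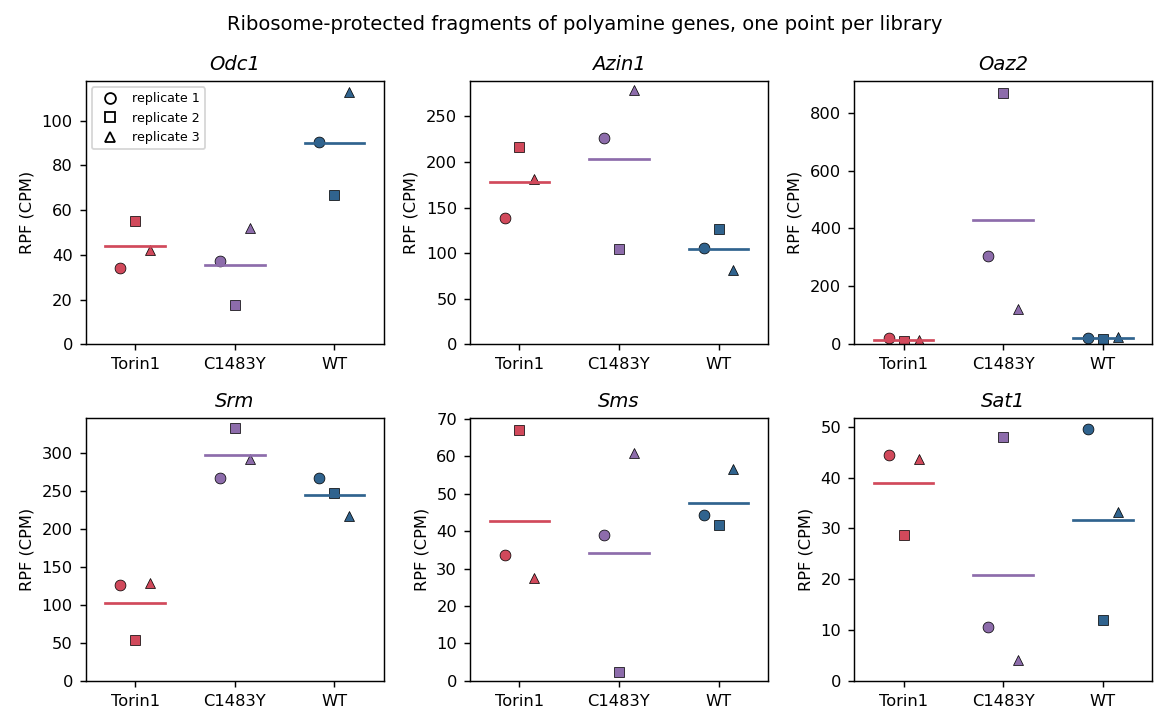
RPF of the 6 measured polyamine genes in CPM (vertical axes, each on its own linear scale) for Torin1, C1483Y and WT cells; each point is 1 library, its shape gives the replicate, and bars are means of 3. Odc1 and Srm sit lower and Azin1 higher in every Torin1 library than in any WT library, and Oaz2 stands at 120 to 867 CPM in C1483Y, above both other groups.

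Oaz2 (chr9:65676548-65690300) encodes antizyme 2, a second antizyme made by the same kind of frameshift. Oaz2 RPF were 21.3, 12 and 15.4 CPM in Torin1, 304, 867 and 120 CPM in C1483Y, and 20.5, 19.7 and 24 CPM in WT. The Torin1 and WT libraries overlapped, and the log2 change in Torin1 was -0.40 ± 0.57 (SE; edgeR adjusted p = 1). All 3 C1483Y libraries lay above both other groups. Oaz2 to Odc1 ratios of RPF reads were 0.626, 0.218 and 0.366 in Torin1, 8.17, 49.5 and 2.31 in C1483Y, and 0.226, 0.295 and 0.212 in WT. All C1483Y ratios lay above those of the other groups, and the Torin1 and WT ratios overlapped.

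**Figure D2:**
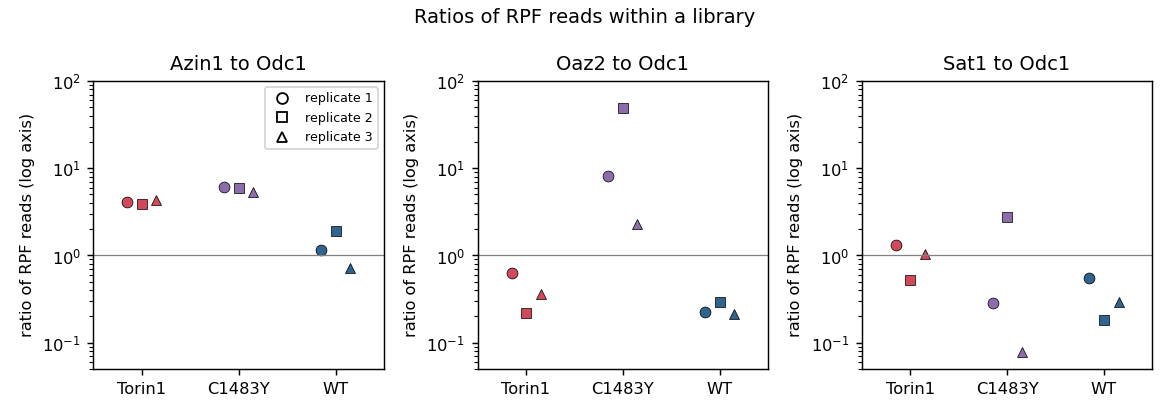
Ratios of RPF reads between members within each library (log axis; the grey line marks 1) for Torin1, C1483Y and WT; each point is 1 library and its shape gives the replicate. Azin1 to Odc1 is 3.9 to 4.32 in Torin1, 5.36 to 6.07 in C1483Y and 0.717 to 1.89 in WT, while Sat1 to Odc1 overlaps between groups.

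The aminopropyl transferases are encoded by Srm and Sms. Srm (chr4:148591513-148594619), the gene of spermidine synthase, had RPF of 127, 53.9 and 129 CPM in Torin1, 267, 333 and 293 CPM in C1483Y, and 268, 248 and 218 CPM in WT. Each Torin1 library lay below all WT and C1483Y libraries, and C1483Y overlapped with WT. The mean was 103 ± 42.7 CPM in Torin1 and 245 ± 24.8 CPM in WT (SD, n = 3 each). The log2 change in Torin1 was -1.25 ± 0.36 (SE; edgeR adjusted p = 0.351, unadjusted 0.00484), and 5.18% of genes with a mean of at least 10 CPM had a lower one. Over 11 other settings the adjusted p of Srm was 0.0674 to 1 and the log2 change -1.44 to -0.94.

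Sms (chrX:157443851-157492287), which encodes spermine synthase, had RPF of 33.6, 67.1 and 27.6 CPM in Torin1, 39.1, 2.34 and 61 CPM in C1483Y, and 44.4, 41.8 and 56.6 CPM in WT. The groups overlapped, with C1483Y replicate 2 standing apart at 12 reads. The log2 change in Torin1 was -0.16 ± 0.88 (SE; edgeR adjusted p = 1). The ratio of Srm to Sms reads, also picked after its values were seen, was 3.78, 0.804 and 4.66 in Torin1, 6.83, 142 and 4.81 in C1483Y, and 6.03, 5.93 and 3.85 in WT. Replicate 2 departed from the others both in Torin1, where it was low, and in C1483Y, where it was high.

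Sat1 (chrX:155213126-155216449) encodes the acetyltransferase that marks spermidine and spermine for export or oxidation, and its translation is known to rise with polyamines. Sat1 RPF were 44.4, 28.7 and 43.6 CPM in Torin1, 10.7, 47.9 and 4.04 CPM in C1483Y, and 49.5, 12 and 33.2 CPM in WT. The 3 groups overlapped, and the log2 change in Torin1 was 0.30 ± 0.91 (SE; edgeR adjusted p = 1). Sat1 to Odc1 ratios were 1.31, 0.52 and 1.04 in Torin1, 0.288, 2.73 and 0.0776 in C1483Y, and 0.546, 0.18 and 0.294 in WT. The lowest Torin1 ratio lay just under the highest WT ratio.

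For scale, the same Torin1 libraries held 83 genes past the threshold in RPF, 82 of them lower. Eef1a1, the elongation factor gene whose mRNA begins with an mTOR-sensitive oligopyrimidine tract, changed by -3.00 ± 0.21 on the log2 scale (SE; edgeR adjusted p = 0.000163). It is an extreme and not a typical gene: 0.432% of genes with a mean of at least 10 CPM had a lower change. Eef2 and Rps6 changed by -2.48 ± 0.24 and -2.14 ± 0.23 (SE; edgeR adjusted p = 0.00126 each). The most negative change among the members, that of Srm, did not pass.

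mRNA levels of the members spread widely within groups. Odc1 mRNA was 72.8, 813 and 14.3 CPM in Torin1, 879, 21.3 and 6.06 CPM in C1483Y, and 287, 499 and 498 CPM in WT. The WT libraries were close to each other, whereas Torin1 and C1483Y each held values above and below all of them. The log2 change of Odc1 in Torin1 was -0.51 ± 1.53 (SE; edgeR adjusted p = 1), and 0.06 without the nearly identical libraries, so its sign depended on these libraries.

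Azin1 mRNA was 75.9, 275 and 385 CPM in Torin1, 1010, 266 and 138 CPM in C1483Y, and 120, 28.1 and 228 CPM in WT, with all groups overlapping. Its log2 change in Torin1 was 0.97 ± 1.68 (SE; edgeR adjusted p = 1), and 0.50 without the nearly identical libraries. Srm mRNA was 93.7, 0.0546 and 189 CPM in Torin1, 753, 135 and 85 CPM in C1483Y, and 84, 15.9 and 101 CPM in WT. The Torin1 replicate 2 value rests on 3 reads, although the RPF library of that number held 1291 Srm reads. The log2 change of Srm mRNA in Torin1 was 0.49 ± 2.13 (SE; edgeR adjusted p = 1), and -0.53 without the nearly identical libraries.

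Sms mRNA reads numbered 956, 4920 and 642 in Torin1, 316, 710 and 692 in C1483Y, and 0, 1 and 1 in WT. Both groups thus lay above WT in mRNA while their RPF overlapped with it, and WT RPF libraries held 596 to 1900 Sms reads. Summed over the group, Sms had 6518 reads in Torin1 and 2 in WT. After division by the summed scaled library sizes the Torin1 to WT ratio was 5350, with a counting interval of 1480 to 44200. The edgeR adjusted p was 0.67, and DESeq2 called the gene. Oaz2 mRNA reads numbered 0, 11207 and 5 in Torin1, 917, 0 and 1218 in C1483Y, and 0, 1 and 4 in WT. Nearly all Torin1 reads of Oaz2 came from replicate 2, and WT RPF libraries held 275 to 895 reads. Sat1 mRNA was 178, 90.6 and 125 CPM in Torin1, 0, 86.7 and 1.14 CPM in C1483Y, and 87.7, 0.131 and 66.7 CPM in WT. Sat1 did not overlap between Torin1 and WT, yet its log2 change of 1.35 had an SE of 3.02 (edgeR adjusted p = 1). Without the nearly identical libraries the change of Sat1 was 1.38. The log2 changes of Sms and Oaz2 in Torin1 mRNA were 12 and 11.15, and 12.39 and 11.74 without these libraries.

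None of the 6 members passed in Torin1 mRNA, where 0.014% of 7121 genes did, and 2 passed an unadjusted p of 0.05 (Oaz2 and Sms, both called by DESeq2), against 7.12% of all genes. Oaz2 and Sms passed the filter in mRNA only through Torin1 and C1483Y libraries, as WT held almost no reads of them. Their mRNA p-values and calls are therefore no support for a difference from WT. Libraries did not overlap for 2 of the 6, both higher (Sms and Sat1), against 5.39% of all genes higher, 4.42% lower and 9.82% either way. In WT mRNA, Oaz2, Sms and, in replicate 2, Sat1 were thus at or near 0. So were Oaz2 in Torin1 replicates 1 and 3 and Srm in Torin1 replicate 2. RPF libraries of the same groups held reads of each gene.

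**Figure D3:**
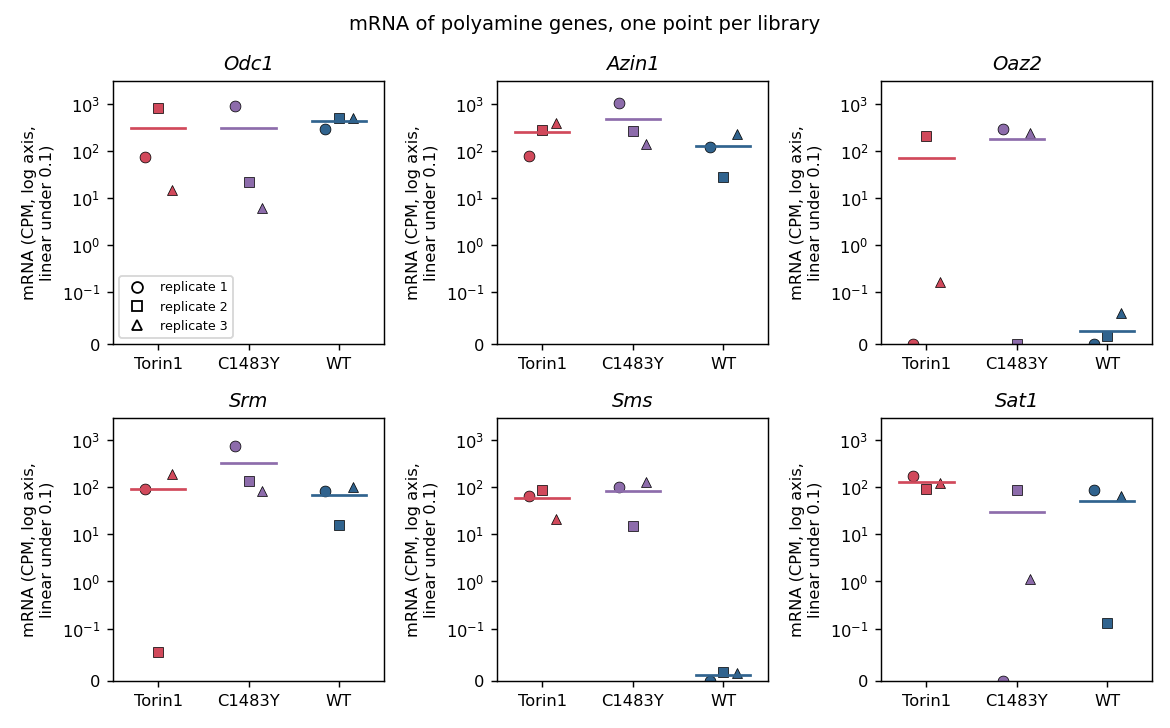
mRNA of the same genes in CPM (vertical axes, log scale above 0.1 and linear below) for Torin1, C1483Y and WT; each point is 1 library, its shape gives the replicate, and bars are means of 3. Oaz2 runs from 0 to 204 CPM within Torin1 and from 0 to 291 CPM within C1483Y, and WT libraries hold Sms at 0 to 0.0163 CPM.

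Translational efficiency (TE) is the RPF level relative to the mRNA level. It was tested in 1 model of all 18 libraries, as the interaction term between assay and group. The labels do not say whether same-numbered RPF and mRNA libraries came from the same cells, and the model did not pair them. For Torin1 none of the 6 members passed, where 0.0283% of 7072 genes did. Oaz2 and Sms passed an unadjusted p of 0.05, against 11.1% of all genes, and DESeq2 called both. The filter in mRNA let both in only through Torin1 and C1483Y libraries, so their TE p-values and calls are no support for a difference. The log2 TE change was -0.50 ± 1.93 for Odc1, -0.17 ± 1.54 for Azin1, -1.71 ± 1.94 for Srm and -1.02 ± 2.99 for Sat1 (SE; edgeR adjusted p = 0.999 for each). Each of these SEs exceeds its change. Sms and Oaz2 had the most negative TE values, -11.99 ± 3.33 and -11.44 ± 3.38 (SE; edgeR adjusted p = 0.223 and 0.224). Their WT mRNA counts were near 0, as given above, and their RPF overlapped between Torin1 and WT. Both passed without the nearly identical mRNA libraries (edgeR adjusted p = 0.0329 and 0.036). The Oaz2 value rests on Torin1 mRNA replicate 2: without that library it was -1.97 (edgeR adjusted p = 0.941). These fitted folds depend on the prior count and are no bound.

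Libraries labelled C1483Y were set against WT next, for the same mRNAs. They differ from WT in the markers given above as well as in the label, and the part of each was not tested. Oaz2 was higher in C1483Y RPF, with means of 431 ± 389 CPM in C1483Y and 21.4 ± 2.31 CPM in WT (SD, n = 3 each). The log2 change was 4.33 ± 0.66 (SE; edgeR adjusted p = 0.00126), and it passed under all 11 other settings run. Its size rests in part on C1483Y replicate 2, without which it was 3.28, while without replicate 3 it was 4.76 (edgeR adjusted p = 0.000523 and 0.000433). It was 1 of 6 members past the threshold, against 18.6% of 11085 genes in this comparison (7.91% higher and 10.7% lower), a share near the background. At an unadjusted p under 0.05, 3 of 6 passed, against 31.8% of all genes. Non-overlap with WT was 1 of 6 higher (Oaz2) and 1 of 6 lower (Odc1), against 16.5% and 27.4% of all genes (43.9% either way).

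Odc1 RPF in C1483Y averaged 35.6 ± 17.3 CPM, against 90.2 ± 23.2 CPM in WT, a log2 change of -1.34 ± 0.54 (SE; edgeR adjusted p = 0.109) that DESeq2 called (adjusted p = 0.0317). Azin1 averaged 203 ± 89.6 CPM in C1483Y and 105 ± 22.7 CPM in WT, a log2 change of 0.96 ± 0.40 (SE; edgeR adjusted p = 0.127). Without C1483Y replicate 2, the lowest of its group, Azin1 passed at a log2 change of 1.24 (edgeR adjusted p = 0.011). Srm, Sms and Sat1 had log2 changes of 0.28 ± 0.35, -0.48 ± 0.89 and -0.59 ± 0.92 (SE; edgeR adjusted p = 0.635, 0.762 and 0.713). Without C1483Y replicate 2 the change of Sat1 was -2.13 (edgeR adjusted p = 0.0631). Replicate 2 of C1483Y held the highest Oaz2, Srm and Sat1 and the lowest Odc1, Azin1 and Sms of its group.

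In C1483Y mRNA none of the 6 passed, where 0.323% of 7121 genes did, and Oaz2 and Sms passed an unadjusted p of 0.05, against 8.72% of all genes. The limit from the filter given for Torin1 holds for Oaz2 and Sms here too, in mRNA and in TE. Libraries did not overlap for 1 of the 6, Sms, which was higher, against 3.23% of all genes higher, 9.49% lower and 12.7% either way. The log2 changes were -0.5031 for Odc1, 12.51 for Oaz2, 1.911 for Azin1, 2.275 for Srm, 12.48 for Sms and -0.8139 for Sat1. Without the nearly identical libraries they were -0.0422, 12.99, 2.11, 2.56, 12.87 and -6.53 in the same order. None passed there either, with Oaz2 nearest (edgeR adjusted p = 0.0573). Summed reads, each divided by the summed scaled library sizes of its group, gave C1483Y to WT ratios of 1260 (counting interval 540 to 3890) for Oaz2 and 2540 (701 to 21000) for Sms, and DESeq2 called both. Most of the summed C1483Y size came from replicate 2, of the nearly identical pair. It held 42.29 M gene counts, against 4.418 and 5.701 M in replicates 1 and 3, and the ratios were not computed without it. C1483Y replicate 2 had 0 Oaz2 mRNA reads beside 4454 in the RPF library of that number, which had the most of its group. In C1483Y TE 0% of 7072 genes passed and none of the 6 members, although 13.3% of genes, Oaz2 and Sms among them, passed an unadjusted p of 0.05, and DESeq2 called both. The log2 TE change of Sms was -12.80 ± 3.40 (SE; edgeR adjusted p = 0.158) and passed without the nearly identical mRNA libraries (edgeR adjusted p = 0.0127). That of Oaz2 was -8.02 ± 3.11 (SE; edgeR adjusted p = 0.241). Over the WT mRNA libraries Sms had 2 reads and Oaz2 had 5, and Sms RPF overlapped between C1483Y and WT. As in Torin1, these fitted folds depend on the prior count and are no bound.

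**Figure D4:**
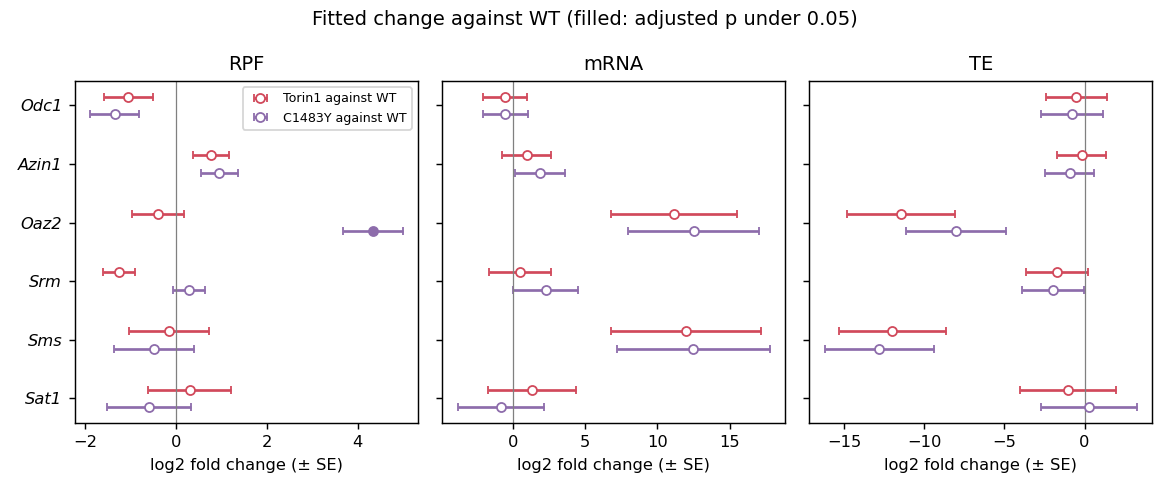
Log2 fold change with its SE (horizontal axes) of each measured member in RPF, mRNA and TE, for Torin1 against WT and C1483Y against WT; filled points passed an adjusted p of 0.05. Oaz2 in C1483Y RPF, at 4.33 ± 0.66, is the filled point, and for each gene the bars are wider in mRNA and TE than in RPF.

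Across groups, mean Odc1 RPF were lowest in C1483Y, then in Torin1 and then in WT, and mean Azin1 RPF were highest in C1483Y, then in Torin1 and then in WT. In both genes the C1483Y and Torin1 libraries overlapped. Mean Srm RPF were lowest in Torin1, then in WT and then in C1483Y, with overlap between C1483Y and WT. Mean Oaz2 RPF had the same order, with overlap between Torin1 and WT. For Sms and Sat1 no neighbours in the order were separated. Levels of different members were not ranked against each other within a group, as the coding lengths needed were not used here.

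Genes with the RPF pattern nearest to Odc1 over the 9 libraries, by the smallest root mean square difference of centred log2(CPM + 1) among 8105 genes, were Herpud1 (0.281), Plbd2 (0.288) and Minos1 (0.299), where the median gene stood at 1.28. On that scale Herpud1 differed by -1.07 and Plbd2 by -1.10 for Torin1 minus WT, beside -1.02 for Odc1. Nearest to Azin1 were Ube2b (0.145), 5730455P16Rik (0.164) and Osbpl1a (0.172), where the median gene stood at 1.30. These 3 differed by 0.63, 0.61 and 0.63 for Torin1 minus WT, beside 0.77 for Azin1. For both members the genes were picked by likeness over these same libraries, so their like differences follow from that choice.

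Another 38 genes of the wider pathway were taken as a list, of which 37 are in the files and 26 were tested in RPF. In Torin1, 0 of the 26 rose and 1 fell, against 0.00902% of all genes higher and 0.74% lower. The list's median log2 change was -0.35, against 0.03 over all genes. The gene that fell was Ahcy, which clears S-adenosylhomocysteine in the methionine cycle that feeds the decarboxylase. Its RPF were 196, 133 and 173 CPM in Torin1 and 505, 473 and 655 CPM in WT. The log2 change was -1.70 ± 0.28 (SE; edgeR adjusted p = 0.0141). Leaving out any 1 library but WT replicate 2 ended this call, with an edgeR adjusted p of up to 0.104. DESeq2 called Mat2a besides Ahcy.

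Slc7a1, the cationic amino acid transporter that brings in arginine, had 70.1, 24.3 and 79.6 CPM in Torin1 and 145, 157 and 148 CPM in WT. Its log2 change was -1.37 ± 0.41 (SE; edgeR adjusted p = 0.426). Mat2a, which makes S-adenosylmethionine, had 144, 62.2 and 102 CPM in Torin1 and 299, 231 and 258 CPM in WT (log2 -1.36 ± 0.34; edgeR adjusted p = 0.193). Neither passed the test, though their Torin1 libraries all lay below WT. That held for 5 of the 26 listed genes (Ahcy, Slc7a1, Mat2a, Eif5a and Gpc1), against 10.7% of all genes, and 2 of the 26 (Mat2b and Myc) lay above WT, against 8.48%. Eif5a, the translation factor that receives spermidine as hypusine, had 996, 1410 and 1290 CPM in Torin1 and 1590, 1820 and 2410 CPM in WT (log2 -0.65 ± 0.24; edgeR adjusted p = 0.834). Myc, which activates Odc1 transcription, had 262, 256 and 364 CPM in Torin1 and 149, 179 and 248 CPM in WT (log2 0.62 ± 0.41; edgeR adjusted p = 1). In RPF, Myc was thus higher and Odc1 lower in each Torin1 library than in any WT library, and neither passed. In mRNA both overlapped between Torin1 and WT, with a log2 change of -1.29 ± 2.67 (SE) for Myc. The hypusination enzymes Dhps and Dohh and the transporter subunit Slc3a2 had log2 changes of -0.67, 0.33 and -0.21 in Torin1 (edgeR adjusted p = 1 each).

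In C1483Y RPF, 2 of the 26 rose and 3 fell, against 7.91% and 10.7% of all genes. The risers were Eif5a, with 5640, 4460 and 4200 CPM in C1483Y and 1590, 1820 and 2410 CPM in WT (log2 1.30 ± 0.25; edgeR adjusted p = 0.00433), and Slc7a1, with 327, 466 and 377 CPM in C1483Y and 145, 157 and 148 CPM in WT (log2 1.38 ± 0.41; edgeR adjusted p = 0.0388). The fallers were Mtap, Dohh and Hdac10. Mtap, which salvages the methylthioadenosine left by both synthases, had 53, 37.4 and 58.6 CPM in C1483Y and 266, 339 and 280 CPM in WT (log2 -2.57 ± 0.32; edgeR adjusted p = 0.00041). Dohh, which completes hypusine on Eif5a, had 13, 1 and 7 reads in C1483Y and 1490, 2845 and 1020 reads in WT (log2 -5.72 ± 0.80; edgeR adjusted p = 0.000812). Hdac10, a deacetylase of acetylated spermidine, had 0 reads in each C1483Y library and 84, 341 and 87 in WT, at least 32.8-fold lower against a floor of 3 reads over the group (edgeR adjusted p = 0.0308).

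Eif5a, Mtap and Dohh passed under all 11 other settings, whereas Slc7a1 and Hdac10 passed under 4 of 11. Leaving out any 1 library ended the Slc7a1 call, with an edgeR adjusted p of 0.0537 to 0.158. Leaving out C1483Y replicate 3 or any WT library ended that of Hdac10 (edgeR adjusted p up to 0.0999). None of the 23 listed genes tested in mRNA and TE passed in either comparison. At an unadjusted p under 0.05, 0 of the 23 passed in Torin1 mRNA, 2 in Torin1 TE, 1 in C1483Y mRNA and 1 in C1483Y TE, against 7.12%, 11.1%, 8.72% and 13.3% of all genes tested. DESeq2 called Eif5a in C1483Y mRNA and no other gene of the list in mRNA or TE. Without the nearly identical libraries edgeR called Eif5a in C1483Y mRNA and Slc3a2 in C1483Y TE.

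**Figure D5:**
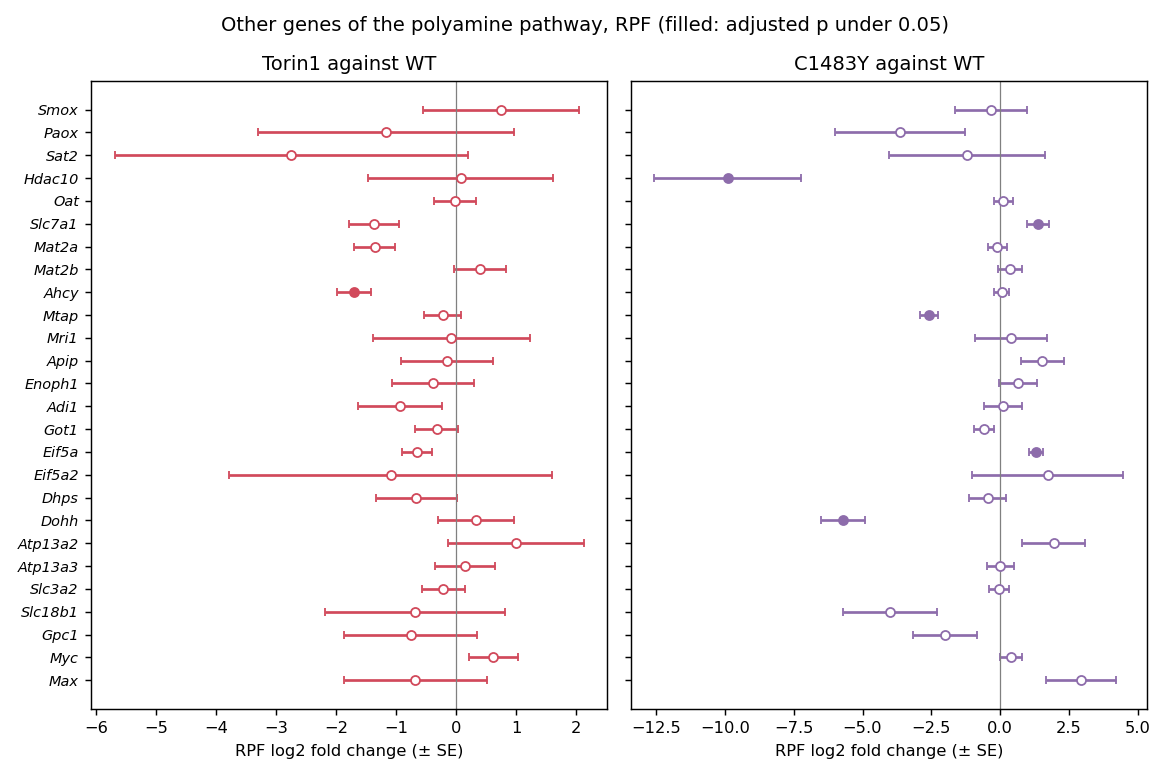
RPF log2 fold change with its SE (horizontal axes, different scales) of the 26 tested genes of the wider pathway, for Torin1 against WT and C1483Y against WT; filled points passed an adjusted p of 0.05. Ahcy, at -1.70, is the filled gene in Torin1, and Slc7a1 and Eif5a lie right of 0 in C1483Y and left of it in Torin1.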

How the data were processed

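Each of the authors' deposited files covers 1 library and gives raw read counts by gene symbol, without normalization. Per the submitters' processing notes, Bowtie 1.1.2, TopHat2 2.1.1, HTSeq and the mm10 build were used; settings, strand included, were not given in the sources used here. In each file the 5 summary lines and 27 lines with dates in place of symbols (0.08905% to 0.2636% of gene counts) were left out; of reads either in or outside genes, 4.284% to 34.35% lay outside. Tmem38b took 0.04243% to 37.02% of RPF gene counts.

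Counts were tested with edgeR 4.0.16 in R 4.3.3 (quasi-likelihood test, TMM factors and filterByExpr within an assay, all 9 libraries of it, Benjamini-Hochberg adjustment over all genes tested, threshold 0.05). TE used all 18 libraries and genes passing the filter in both assays. CPM refer to the reads in genes passing the filter, with these library sizes multiplied by TMM factors. SE is the size of the log2 change divided by the root of the F statistic. The filter passed 6 of 8 members in each assay; Oaz1 and Amd1 had no reads. Counting intervals are exact at 95% and cover counting error alone, as no molecular identifiers are mentioned. Scripts were tested on simulated data with large changes and a smaller spread than these libraries have. That test does not show how the fit behaves at the spread seen here. Alternatives included DESeq2 1.42.0.

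The members and lists were chosen with earlier results of these data known. The named genes were all 8 members, listed pathway genes past the threshold, Eif5a, Dhps, Dohh, Mat2a, Slc3a2 and Myc always, and the 3 genes most like Odc1, Oaz1, Azin1 and Amd1, with a mean of at least 10 CPM. Levels per coding length were not computed, as coding lengths were not used here.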

Additional observations from a re-analysis of the deposited data

How the results depend on the processing

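Alternatives were DESeq2 size factors, no filter on low counts, DESeq2's Wald test, the 2 groups alone, a replicate block, leaving out each library, and leaving out the nearly identical mRNA pair. The rows of the wider pathway list were added after seeing the data. Members called in Torin1 RPF were 0 under every setting (DESeq2 gave an adjusted p for 3 of the 6), and in C1483Y RPF 1 (2 with DESeq2, 1 to 2 without a library). In C1483Y RPF DESeq2 called 3313 of 11085 genes. With DESeq2, 2 members were called in each of mRNA and TE in both comparisons. Of 7121 genes in mRNA it called 498 in Torin1 and 494 in C1483Y. Of 7072 genes in TE it called 543 in Torin1, and 102 higher and 577 lower in C1483Y. Without the pair, 2 were called in Torin1 TE and 1 in C1483Y TE, where size factors called 1 and leaving out a library 0 to 1. Pathway genes called were 2 with DESeq2 and 0 to 1 without a library in Torin1 RPF, and 3 to 6 without a library in C1483Y RPF. In C1483Y mRNA they were 1 with DESeq2 and without the pair, in C1483Y TE 1 without the pair, and in each 0 to 1 without a library.

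With size factors or DESeq2, genes tested were 11085 in RPF, 7121 in mRNA and 7072 in TE. Without the pair they were 8064 in mRNA and 7944 in TE. Over all genes, Torin1 RPF calls were 83, 160 with DESeq2, 138 with 2 groups alone and 33 to 62 without a library. Torin1 mRNA calls were 1, 0 with size factors, without the filter and without the pair, 498 with DESeq2, 2 with 2 groups alone and 0 to 1 without a library. Torin1 TE calls were 2, 0 with size factors, 5 without the filter, 543 with DESeq2, 8 with 2 groups alone, 45 without the pair and 2 to 3 without a library. C1483Y RPF calls were 2060, 3313 with DESeq2 and 1163 to 3161 without a library. C1483Y mRNA calls were 23, 0 with size factors, 14 without the filter, 494 with DESeq2, 145 without the pair and 7 to 172 without a library. C1483Y TE calls were 0, 12 with size factors, 6 without the filter, 679 with DESeq2, 240 without the pair and 0 to 79 without a library. The cause of these moves was not tested.

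With the replicate block, calls were 85 in Torin1 RPF, 0 in Torin1 mRNA, 6 in Torin1 TE, 1595 in C1483Y RPF, 17 in C1483Y mRNA and 5 in C1483Y TE, with 3 pathway genes in C1483Y RPF and members called as reported. Same-numbered Torin1 and WT RPF libraries correlated at 0.142, 0.0592 and 0.0347 in their deviations, against -0.0946 to 0.0134 for differently numbered ones. For C1483Y and WT the values were 0.0681, 0.0299 and 0.0394, against -0.0397 to -0.00176. The same-numbered values were thus small but higher in RPF. Between RPF and mRNA libraries of a group, same-numbered ones correlated at -0.0413 to 0.0262, against -0.0481 to 0.0602 for differently numbered ones. Whether the numbers pair the samples was not tested, and the main fit has no replicate block. Under the block the sign turned for Srm in Torin1 mRNA (-0.19) and for Odc1 in TE (1.12 in Torin1, 1.85 in C1483Y).

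Other log2 changes that turned sign, none of them past the threshold, were the following. Without the pair they were Srm (-0.53) and Odc1 (0.0647) in Torin1 mRNA and Azin1 in Torin1 TE (0.29). With size factors and with DESeq2 they were Azin1 in Torin1 TE (0.0661 and 0.0658) and Odc1 in C1483Y mRNA (1.55 in each). Size factors moved the median of all genes to 0.985 in C1483Y mRNA, from -0.501 with TMM, and to -1.73 in C1483Y TE, from 0.0584. Without the filter it was Sat1 in C1483Y TE (-0.18). Leaving out a library gave ranges across 0 for Sms (-0.64 to 0.0974) and Sat1 (-0.0886 to 0.94) in Torin1 RPF, Odc1 (-3.30 to 0.0618) and Srm (-0.53 to 1.098) in Torin1 mRNA, Odc1 (-1.08 to 2.28) and Azin1 (-0.89 to 0.29) in Torin1 TE, Sms in C1483Y RPF (-1.21 to 0.0438), and Odc1 (-1.28 to 3.67), Azin1 (-1.61 to 0.31) and Sat1 (-1.28 to 5.95) in C1483Y TE. With 2 groups alone Oaz2 was not tested in mRNA and TE. Levels per coding length and ratios to Oaz1 were not run, for want of coding lengths and of Oaz1 reads.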

Other observations

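The nearly identical mRNA libraries, C1483Y replicate 2 and Torin1 replicate 3, differed at Odc1. Of 3800 genes with at least 1000 reads over the pair, the median absolute log2 ratio was 0.0283 and the 95th percentile 0.146. Odc1 had 1000 reads in the C1483Y library and 437 in the Torin1 library, a 2.07-fold difference after division by each library's gene counts. Counting Odc1 itself, 46 genes had a ratio at least as far from 1. Azin1, Srm, Sat1 and Sms had log2 ratios of -0.05, -0.00074, -0.04 and 0.0036 between these libraries. Odc1 was singled out after its values were seen.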
